A study of Mus musculus with 503 samples.

Results

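The 10 genes described here encode receptors through which hormones, neurotransmitters and other vasoactive signals reach the cells of the vessel wall: *Ednra*, *Ednrb*, *Agtr1a*, *Adra1a*, *Adra2a*, *P2ry14*, *Ptger3*, *Npr1*, *Npr3* and *Olfr558*. They are 10 of the 56701 gene rows of the deposited counts, of which 34933 had a count in the cells used, and each of the 10 had counts on plate 211 and on the other 3 plates. They were chosen by their receptor class and by earlier values of these same counts, among them the group levels of *Ednrb* and *Olfr558*, so differences between groups are given as descriptions with no test. The cells were single perivascular cells sorted from the spinal cord of adult GLAST-CreERT2;R26R-tdTomato;Pdgfrb-eGFP mice, which the labels give as female. Tamoxifen-induced Cre, expressed under control of the glutamate transporter gene GLAST (*Slc1a3*), turns on tdTomato in GLAST-expressing cells and their progeny, and EGFP driven by *Pdgfrb* marks pericytes, vascular smooth muscle cells (vSMCs) and perivascular fibroblasts. All 4 groups carried these alleles, and they were the tdTomato+EGFP+ and the tdTomato-EGFP+ cells of uninjured cord and of the crushed segment 3 days after a complete spinal cord crush (3d SCI). Since all were EGFP+, the sorts are called tdTomato+ and tdTomato- below. The labels of the injured cells give 3 days and the series text gives 5, and the labels were followed.

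Most of these receptors couple to G proteins, and they set the tone of vessels in opposite directions. Endothelin, angiotensin II, noradrenaline at alpha-1 receptors and prostaglandin E2 at EP3 receptors favour contraction of vSMCs and pericytes, whereas natriuretic peptides raise cyclic GMP through the guanylyl cyclase receptor Npr1 and relax them. In the central nervous system, endothelin B receptors are best known from endothelial cells and astrocytes, and endothelin A receptors from mural cells.

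The counts came from Smart-seq3, a full-length single-cell RNA method, on 4 plates. Uninjured cord filled plates 209 and 213 and injured cord plates 211 and 215, so a plate effect and an injury effect cannot be told apart, whereas both sorts were on every plate. Of 503 labelled cells, 468 passed the filters. Plates 209 and 213 gave 65 and 72 uninjured tdTomato+ and 46 and 60 uninjured tdTomato- cells, and plates 211 and 215 gave 88 and 34 injured tdTomato+ and 58 and 45 injured tdTomato- cells, with group totals between 25645409 and 38406035 counts. Median depth per cell ranged from 204006 to 271660 counts over the groups, but was 14770 counts for the 34 injured tdTomato+ cells on plate 215. No label names an animal, so each group is 1 sample and no p-value was computed. Levels are CPM, the counts summed over a group's cells and scaled to a total of 1000000, with exact 95% Poisson intervals. A value for each plate shows the spread between plates, and whether the plates of a group share animals is not given. Intervals and limits cover counting error only. Whether a count is an amplified read or a molecule is not given, and amplified reads would not be independent.

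The markers of the sorted cells were present in every group, but in unequal amounts. The summed level of 8 pericyte markers was 7822 CPM in uninjured tdTomato+ cells, 8521 CPM in uninjured tdTomato- cells, 578.3 CPM in injured tdTomato+ cells and 8241 CPM in injured tdTomato- cells. The sum of 8 perivascular fibroblast markers was 21865 CPM in injured tdTomato+ cells and between 2205 and 9659 CPM in the other 3 groups. Markers of endothelial cells, which neither reporter should label, moved as well: all 8 had counts in every group, and their sum was 6443, 6857, 502.4 and 2362 CPM in the same order of groups, with *Pecam1*, *Cldn5*, *Ly6c1* and *Kdr* at 0 in the injured tdTomato+ cells of plate 215. The sum of 8 astrocyte markers ran from 40 to 574.1 CPM. The part of this makeup in the receptor levels was not tested, and in summed counts fewer cells of a type and less RNA per cell cannot be told apart.

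Receptor levels were compared as differences of log2(CPM + 1). A gene was counted as past the fold where it reached 10 CPM in either group, differed by at least 1 on this scale, and had the same sign on every plate or, for injury, whichever injured plate was set against whichever uninjured plate (4 pairs). Between the 2 uninjured sorts, 6 receptors reached the level; none was higher in tdTomato+ cells, against 4.31% of all 11198 genes at this level, and 1 was lower (*Ptger3*), against 3.61%. After injury the sorts stood apart: 5 of 6 receptors at the level were lower in tdTomato+ than in tdTomato- cells (*Ednra*, *Ednrb*, *P2ry14*, *Npr1* and *Olfr558*), against 17.9% of 10631 genes, and none was higher, against 4.31%. The median of the 6 was -2.44 and that of all genes -0.32.

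The 2 sorts differed from their uninjured counterparts in separate ways. In tdTomato+ cells, the same 5 receptors were lower after injury and *Npr3* was higher, 6 of the 6 at the level. Over all 11429 genes 34.3% were lower and 10.8% higher, and the median was -2.39 over the receptors and -0.59 over all genes. In tdTomato- cells, 1 of 6 was higher (*Ednrb*), against 9.52% of 11434 genes, and 1 was lower (*Olfr558*), against 17%, with medians of -0.48 and -0.20. The injury difference in tdTomato+ cells minus that in tdTomato- cells was past the fold for 5 of 7 receptors, all on the lower side, against 20.6% of 12081 genes, and for none on the higher side, against 4.57%. These comparisons share groups, and the receptors were chosen with such values known, so nothing is read from the counts.

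The balance of higher and lower genes depended on the scaling of the sums. For injury in tdTomato+ cells, 1238 genes were higher and 3921 lower in CPM, 2381 and 2158 with edgeR's TMM factors, and 2734 and 1888 with DESeq2 size factors, and the median of all genes moved from -0.59 to 0.13 and 0.27. For injury in tdTomato- cells the split was 1089 higher and 1941 lower in CPM, 1607 and 1241 with TMM, and 1484 and 1319 with DESeq2. For the sorts after injury it was 458 and 1908, 951 and 1256, and 1304 and 1066, and for the difference of injury effects 552 and 2484, 1051 and 1630, and 1439 and 1318. None of the receptors past the fold changed sign with the scaling. *P2ry14* fell short of the fold in the difference of injury effects with DESeq2 size factors, at a log2 difference of -0.96. *Ednra* in injured against uninjured tdTomato+ cells fell short of the fold with both factors, at -0.66 and -0.53, and *Npr3* became higher in tdTomato+ cells among the injured sorts, at 1.11 and 1.25.

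**Figure D1:**
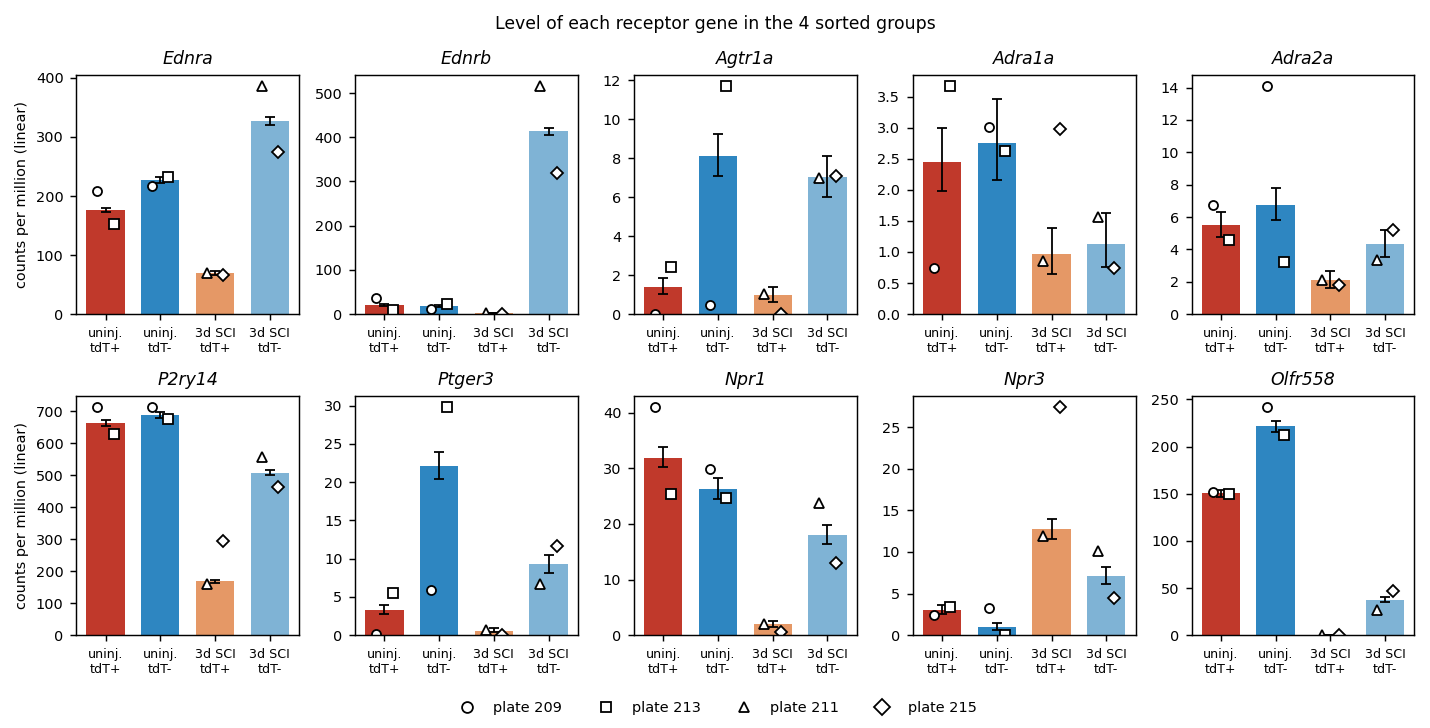
Level of each of the 10 receptor genes in the 4 sorted groups, in CPM on a linear axis with its own scale per gene. Bars are the summed cells of a group, error lines the 95% Poisson interval, and open symbols the values of the 2 plates of each group. *Ednrb* stands at 413.1 CPM in injured tdTomato- cells and at 21 CPM or less in the other groups, and *Olfr558* has no count in injured tdTomato+ cells.

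The endothelin receptors *Ednra* and *Ednrb* were both lower in injured tdTomato+ than in injured tdTomato- cells. *Ednra*, the endothelin A receptor (chr8:77663031-77724464, minus strand), was at 208.9 and 152.98 CPM in uninjured tdTomato+ cells of plates 209 and 213, 216.3 and 232.2 CPM in uninjured tdTomato- cells, 69.6 and 66.8 CPM in injured tdTomato+ cells of plates 211 and 215, and 386.4 and 274.0 CPM in injured tdTomato- cells. Every injured tdTomato+ plate lay below every other plate and every injured tdTomato- plate above, while the gap between the 2 uninjured sorts was smaller than the spread of the uninjured tdTomato+ plates. In the sums, *Ednra* was 4.72-fold higher (95% interval 4.5 to 4.95) in injured tdTomato- than in injured tdTomato+ cells. Against uninjured cells it was 2.54-fold lower in the tdTomato+ sort and 1.44-fold higher in the tdTomato- sort, the latter short of the fold.

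*Ednrb*, the endothelin B receptor, was low in 3 groups and high in 1. It was at 37.1 and 9.4 CPM on the plates of uninjured tdTomato+ cells, 11.3 and 22.3 CPM for uninjured tdTomato- cells, 2.24 and 0 CPM for injured tdTomato+ cells, and 516.0 and 319.8 CPM for injured tdTomato- cells. Both plates of the last group lay above all others, and the uninjured sorts overlapped. The summed level in injured tdTomato- cells was 194.9-fold (153.1 to 252.2) that of injured tdTomato+ cells, where the gene had 66 counts in 5 cells, and 22-fold (20.1 to 24.1) that of uninjured tdTomato- cells. On the log2 scale the injury difference ran over the 4 plate pairs from 3.78 to 5.39 in the tdTomato- sort and from -5.25 to -1.68 in the tdTomato+ sort.

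The *Ednrb* counts came from few cells. In injured tdTomato- cells, 49 cells had a count (47.6%, exact binomial 95% interval 37.6 to 57.6), and 41 did (40.2%) after each cell was thinned to 20000 counts, which left out 1 shallower cell. In the uninjured tdTomato+, uninjured tdTomato- and injured tdTomato+ groups 25, 14 and 5 cells had a count (18.2%, 13.2% and 4.1%), and 9.45%, 5.43% and 3% did after thinning, which left out 10, 14 and 22 cells. The highest injured tdTomato- cell held 18.8% of that group's *Ednrb* counts and 4 cells held at least 50% of them, but without the highest cell the level was still 345.8 CPM. The uninjured values rest on fewer cells: 1 cell held 56.4% of the counts in uninjured tdTomato- cells, where the level without it was 8.34 CPM, and 1 cell held 29% in uninjured tdTomato+ cells. That last cell also carried 2510 CPM of the summed astrocyte markers, against 287.0 CPM in its group.

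**Figure D2:**
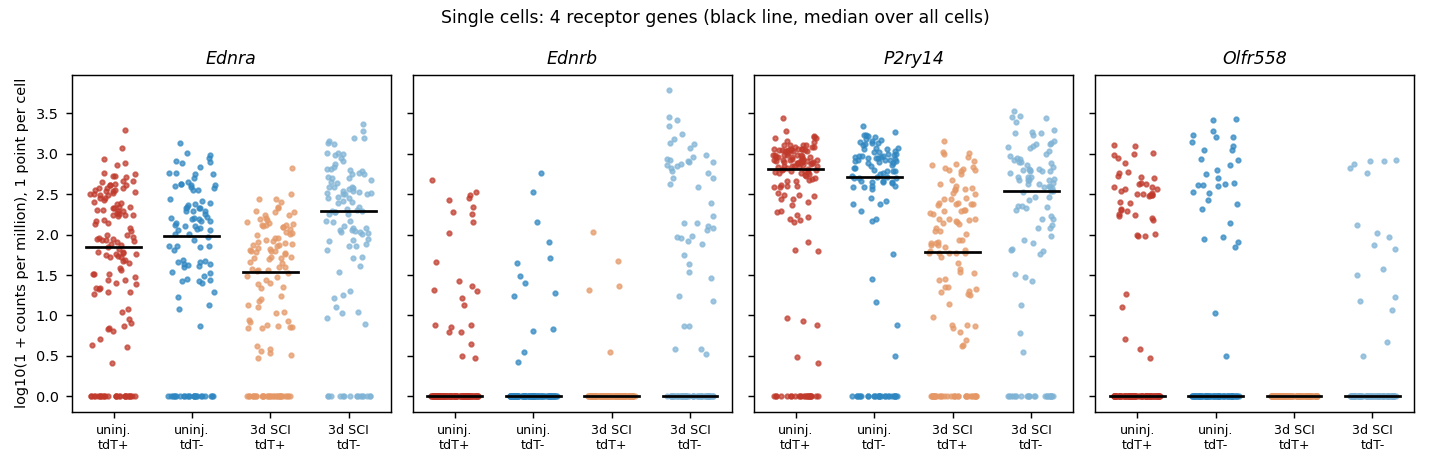
Single cells of the 4 groups for *Ednra*, *Ednrb*, *P2ry14* and *Olfr558*, with 1 point per cell on a log10(1 + CPM) axis and the black line at the median over all cells of the group. *Ednra* and *P2ry14* had a count in 73.8% to 85.4% of the cells of each group, whereas the medians of *Ednrb* and *Olfr558* are at 0 in every group and their levels come from the upper points.

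Both endothelin receptors were found in the same cells. All 49 injured tdTomato- cells with an *Ednrb* count also had *Ednra*, 39 had *Ednra* alone, and 15 had neither. After thinning, 40 cells had both, 35 *Ednra* alone, 1 *Ednrb* alone and 26 neither. *Ednra* itself was found in 85.4% of the group.

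**Figure D3:**
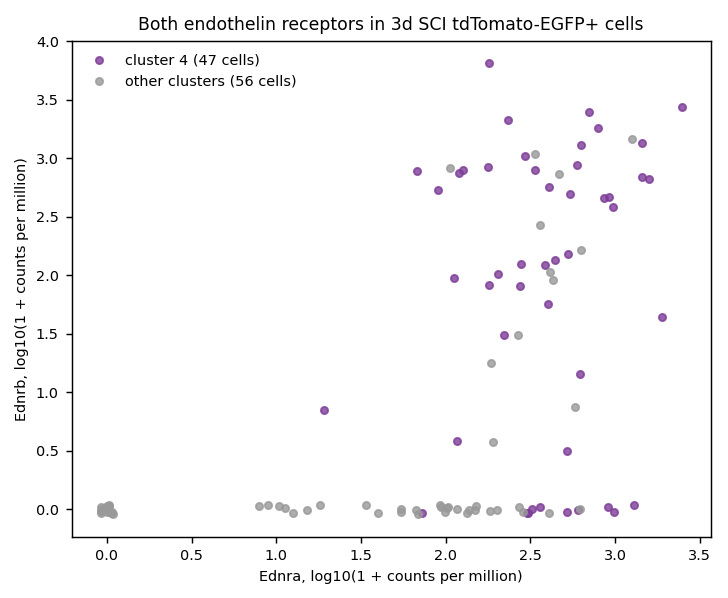
*Ednra* against *Ednrb* in the injured tdTomato- cells, both as log10(1 + CPM), with a small random shift so that cells at 0 can be seen. Purple points are the 47 cells of cluster 4 and grey points the 56 cells of other clusters; the cells with the highest *Ednrb* are mostly purple, and no cell has *Ednrb* without *Ednra*.

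The stretches upstream of 4 of the receptors past the fold after injury are shown to set the start of *Ednrb* beside those of *Ednra*, *Npr1* and *Olfr558*. RefSeq (GRCm38.p6) gave a start for 8 of the 10 receptors, and *Agtr1a* and *Adra1a* had no entry. Each line is read 5′ to 3′ on the gene's strand from 250 bases before that start, leaving out bases of annotated exons, and capitals mark E-boxes, CANNTG. The letters of an AP-1 site, TGANTCA, were searched as well, and both motifs read the same on both strands. *Ednra* lies at chr8:77724465-77724702 on the minus strand, *Ednrb* at chr14:103843702-103843951 on the minus strand, *Npr1* at chr3:90465867-90466116 on the minus strand and *Olfr558* at chr7:102702073-102702214 on the plus strand. In the GENCODE annotation the *Ednrb* gene spans chr14:103814625-103844402, so its RefSeq start lies inside the annotated gene, and the stretch touches none of its exons.
Ednra: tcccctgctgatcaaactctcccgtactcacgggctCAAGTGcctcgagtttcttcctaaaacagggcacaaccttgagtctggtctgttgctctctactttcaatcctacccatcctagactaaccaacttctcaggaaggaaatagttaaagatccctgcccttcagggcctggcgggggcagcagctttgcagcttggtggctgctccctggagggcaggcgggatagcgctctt
Ednrb: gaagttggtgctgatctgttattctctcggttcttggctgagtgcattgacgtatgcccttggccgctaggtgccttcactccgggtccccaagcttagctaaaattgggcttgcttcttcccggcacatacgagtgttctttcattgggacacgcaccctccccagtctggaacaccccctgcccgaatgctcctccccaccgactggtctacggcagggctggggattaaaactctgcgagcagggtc
Npr1: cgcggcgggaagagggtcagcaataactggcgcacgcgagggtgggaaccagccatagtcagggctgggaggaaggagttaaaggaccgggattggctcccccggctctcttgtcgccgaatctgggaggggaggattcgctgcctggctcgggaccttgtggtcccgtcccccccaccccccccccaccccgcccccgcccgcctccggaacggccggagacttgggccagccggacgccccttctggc
Olfr558: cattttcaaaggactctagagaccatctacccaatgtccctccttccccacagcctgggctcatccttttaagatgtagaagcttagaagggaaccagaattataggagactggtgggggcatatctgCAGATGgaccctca
*Ednra* held 1 E-box, with its first base at position -214 from the start, and *Olfr558* held 1 at -122, while the letters were not found in the windows of *Ednrb* and *Npr1*. None of these 4 windows held the AP-1 letters. *P2ry14*, also past the fold after injury, has 4 RefSeq starts and is not shown. For this gene the AP-1 letters lay at -202 from 1 start and at -144 from another, and were not found upstream of the rest. The window with the match at -144 also held 2 E-boxes. Of 32851 mouse promoters of 250 bases, 66.2% held an E-box and 6.75% an AP-1 site, so these matches are descriptions of sequence only.

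The rest of the endothelin list was described by the same fold. Of 6 genes (*Edn1*, *Edn2*, *Edn3*, *Ece1*, *Ece2* and *Mme*), 4 reached 10 CPM in the injury comparison of tdTomato+ cells and 3 of them were lower, against 34.3% of all genes at the level. In tdTomato- cells 1 of 4 was lower, near the 17% of all genes. *Edn1*, which encodes the ligand endothelin-1, was at 37.2 CPM in uninjured tdTomato+, 37.8 CPM in uninjured tdTomato-, 0.257 CPM in injured tdTomato+ and 45.4 CPM in injured tdTomato- cells. *Edn3*, the ligand endothelin-3, which acts mainly on the endothelin B receptor, was lower after injury in both sorts: it was at 270.5 and 75.8 CPM in the uninjured sorts and at 10.1 and 13.9 CPM in the injured ones.

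*Agtr1a*, the main angiotensin II receptor of vessels in the mouse, stayed under 10 CPM in every group. Its level was 1.41 CPM in uninjured tdTomato+, 8.11 CPM in uninjured tdTomato-, 0.964 CPM in injured tdTomato+ and 7.02 CPM in injured tdTomato- cells, with counts in 3, 3, 1 and 14 cells. In uninjured tdTomato- cells 1 cell held 67.9% of the counts. No order of the groups is read from so few cells. Of the 11 other genes of the angiotensin list, 7 reached the level in the tdTomato+ injury comparison and 5 of these were lower, against 34.3% of all genes. The 5 include *Enpep*, aminopeptidase A, which was at 387.5 and 446.2 CPM in the uninjured tdTomato+ and tdTomato- sorts, 26.6 CPM in injured tdTomato+ and 329.5 CPM in injured tdTomato- cells. They also include *Agtr1b*, the second mouse type 1 receptor, which was at 13.5, 25.5, 0 and 3.24 CPM in the same order. In tdTomato- cells 2 of 8 were lower after injury, where the share of all genes was 17%, and none was higher.

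The adrenergic receptors *Adra1a* and *Adra2a* were scarce. *Adra1a*, an alpha-1 receptor through which noradrenaline contracts smooth muscle, ran from 0.964 to 2.75 CPM and had counts in 9 to 12 cells of each group. *Adra2a*, an alpha-2 receptor, was at 5.49, 6.73, 2.09 and 4.33 CPM in the order uninjured tdTomato+, uninjured tdTomato-, injured tdTomato+ and injured tdTomato-, with counts in 10 to 22 cells per group. On single plates it ran from 1.79 to 14.1 CPM, and the uninjured plates overlapped the injured ones in the tdTomato- sort. Neither reached the level for a comparison.

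*P2ry14*, a receptor for UDP-glucose and related nucleotide sugars, was present in most cells of every group: 83.2%, 75.5%, 73.8% and 78.6% of the cells had a count, in the order uninjured tdTomato+, uninjured tdTomato-, injured tdTomato+ and injured tdTomato-. Its level on plates 209 and 213 was 713.0 and 628.5 CPM in tdTomato+ cells and 713.8 and 677.5 CPM in tdTomato- cells, so the uninjured sorts overlapped. On plates 211 and 215 it was 161.9 and 293.9 CPM in tdTomato+ cells and 557.5 and 464.6 CPM in tdTomato- cells. All 4 injured values lay below the 4 uninjured ones, those of the tdTomato+ sort furthest. The sum was 3.93-fold (3.81 to 4.05) lower after injury in tdTomato+ cells and 1.35-fold (1.32 to 1.39) lower in tdTomato- cells, and the injured sorts differed 3.01-fold (2.91 to 3.11). The sort difference on plate 215 alone was -0.66 on the log2 scale, against -1.78 on plate 211. *P2ry14* (chr3:59113855-59153618, minus strand) lies within *Med12l* on the opposite strand, with which it shares no exonic base.

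Of 15 other purine receptors, 5 reached the level in the tdTomato+ injury comparison and 3 of these were lower, against 34.3% of all genes. *Adora2a*, an adenosine receptor that dilates vessels, was at 191.4 and 132.7 CPM in the uninjured sorts, 8.16 CPM in injured tdTomato+ and 80.9 CPM in injured tdTomato- cells. *P2ry1*, an ADP receptor, was at 94, 16, 15.2 and 4.56 CPM in the same order. In tdTomato- cells 1 of 8 was higher and 2 were lower after injury, near the shares of all genes, 9.52% and 17%.

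*Ptger3*, the EP3 receptor for prostaglandin E2, was the one receptor past the fold between the uninjured sorts, and it came from very few cells. It was at 0.124 and 5.55 CPM on the 2 plates of uninjured tdTomato+ cells and at 5.91 and 29.8 CPM on those of uninjured tdTomato- cells, lower within each plate, and the ranges came close without overlapping. The 594 counts in uninjured tdTomato- cells came from 5 cells, of which 1 held 55.4%. Without plate 213 the gene was no longer past the fold, as it stayed under 10 CPM, while its log2 difference on plate 209 was -2.62. After injury it was at 0.61 CPM in 3 tdTomato+ cells and at 9.28 CPM in 10 tdTomato- cells. The prostanoid list went in both directions: of its 16 other genes, 9 reached the level in the tdTomato+ injury comparison, with 2 higher and 4 lower, and 13 in the tdTomato- comparison, with 5 higher and 2 lower. Of all genes, 10.8% were higher and 34.3% lower in the first comparison and 9.52% and 17% in the second. *Ptgs2*, the inducible cyclooxygenase, was at 12.4, 17.2, 288.9 and 57.2 CPM in the order above, higher after injury in both sorts. *Tbxa2r*, the thromboxane receptor, was at 196.2, 298.2, 7.97 and 179.4 CPM, and *Ptgir*, the prostacyclin receptor, at 2.55, 9.48, 7.58 and 53.2 CPM.

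The natriuretic peptide receptors *Npr1* and *Npr3* differed in direction in tdTomato+ cells after injury. *Npr1*, the guanylyl cyclase that answers atrial natriuretic peptide, was at 41 and 25.4 CPM on the plates of uninjured tdTomato+ cells, 29.8 and 24.6 CPM for uninjured tdTomato-, 2.1 and 0.596 CPM for injured tdTomato+ and 23.7 and 12.9 CPM for injured tdTomato- cells. The injured tdTomato+ plates lay below all others, and the uninjured sorts overlapped. The sum was 15.8-fold (12.2 to 20.7) lower after injury in tdTomato+ cells, and in tdTomato- cells it was 1.45-fold (1.29 to 1.64) lower, short of the fold. The endothelial marker sum was also lower, from 6443 to 502.4 CPM in the first sort and from 6857 to 2362 CPM in the second. The pericyte marker sum went from 7822 to 578.3 CPM and from 8521 to 8241 CPM. The part of either makeup in the *Npr1* levels was not tested. *Npr1* was highest in cells of clusters 2 and 5, described below, in which all 8 endothelial markers were raised. Without those clusters it was at 8.99, 31, 2.04 and 12.6 CPM, and the tdTomato+ difference no longer reached the level for a call. In uninjured tdTomato- cells, 1 cell of cluster 3, which stayed in, held 162 of the group's 706 *Npr1* counts. *Npr1* (chr3:90450591-90465866, minus strand) shares 559 exonic bases, 11.7% of its own, with the antisense transcript *Gm16048*. Since it is not given whether strand was used in counting, reads of the pair cannot be told apart.

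*Npr3*, the clearance receptor that removes natriuretic peptides, had the opposite pattern at a low level. It was at 2.49 and 3.4 CPM on the uninjured tdTomato+ plates, 3.24 and 0 CPM on the uninjured tdTomato- plates, 11.9 and 27.4 CPM on the injured tdTomato+ plates and 10.1 and 4.46 CPM on the injured tdTomato- plates. Every injured plate lay above every uninjured plate. After injury 41 tdTomato+ cells (33.6%) and 21 tdTomato- cells (20.4%) had a count, against 7 (5.11%) and 3 (2.83%) of the uninjured cells. After thinning these shares were 13% and 5.88% against 1.57% and 2.17%. The sum was 4.21-fold (3.42 to 5.23) higher in injured than in uninjured tdTomato+ cells, and 6.85-fold (4.59 to 10.6) higher in tdTomato- cells, where neither group reached 10 CPM. With a pseudocount of 10 CPM the first difference was not past the fold. Over all 468 cells, 14 had both receptors and 58 had *Npr3* alone, while *Npr1* was found in 28.2%. By group, 5, 1, 3 and 5 cells had both and 2, 2, 38 and 16 had *Npr3* alone. The order is uninjured tdTomato+, uninjured tdTomato-, injured tdTomato+ and injured tdTomato-. The pooled count mixes groups with unlike levels of both genes, and whether they keep to separate cells within a group was not tested. Of 7 other genes of the natriuretic list, *Nppc*, the ligand C-type natriuretic peptide, was past the fold on the higher side after injury in tdTomato- cells, at 0.223 CPM before and 13.7 CPM after. *Prkg1*, the cyclic GMP-dependent kinase of smooth muscle, was at 45.9, 49.3, 5.72 and 29.8 CPM in the order of groups used above.

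*Olfr558*, the mouse counterpart of human *OR51E1*, is an olfactory receptor family gene that also is expressed outside the nose and binds short and branched fatty acids. It was at 151.6 and 149.8 CPM in uninjured tdTomato+ cells of plates 209 and 213, 241.9 and 211.8 CPM in uninjured tdTomato- cells, and 27.2 and 47.1 CPM in injured tdTomato- cells of plates 211 and 215, with no count on either plate of injured tdTomato+ cells. The 4 groups did not overlap by plate. By counting error alone, a count of 0 in 31133429 allows up to 0.0964 CPM, and on plate 215 alone 1.79 CPM. On that basis the level in injured tdTomato+ cells was at least 1562-fold lower than in uninjured tdTomato+ cells. Against injured tdTomato- cells it was at least 390.5-fold lower. These limits do not cover which cells were sampled. The highest cell of the uninjured tdTomato+, uninjured tdTomato- and injured tdTomato- groups held 617, 950 and 327 counts. Of the clusters described below where *Olfr558* was highest, cluster 7 held 0 and cluster 5 held 1 of the injured tdTomato+ cells. In tdTomato- cells the sum was 5.89-fold (5.5 to 6.31) lower after injury. Cluster 7 held 14 uninjured and 1 injured cell of this sort. Its 14 uninjured cells held 4058 of the 5955 counts of uninjured tdTomato- cells. The part of this makeup in the fold was not tested. Counts were found in 46 uninjured tdTomato+ cells (33.6%), 33 uninjured tdTomato- cells (31.1%) and 18 injured tdTomato- cells (17.5%), and none of the injured tdTomato+ cells had one, which allows a share of cells with a count of up to 2.46%. That limit covers counting error over cells at their own depths, 22 of them under 20000 counts, and is no limit on cells that express the gene. Of the injured tdTomato- counts, 1 cell held 33.9%, and the level without it was 25.3 CPM.

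*Olfr78*, the mouse counterpart of human *OR51E2* and a further vascular member of the family, starts 26447 bases beyond the end of *Olfr558* on chromosome 7 (*Olfr558* chr7:102702215-102712064, plus strand; *Olfr78* chr7:102738511-102759471, minus strand). Its level was 19 CPM in uninjured tdTomato+, 60.8 CPM in uninjured tdTomato-, 0.0642 CPM in injured tdTomato+ and 28.2 CPM in injured tdTomato- cells, but 1 cell held 84.4% of the last value. Of 35 cells with an *Olfr78* count, 34 also had *Olfr558*, while 63 cells had *Olfr558* alone. The newer symbols of both genes are separate entries of the counts and had 0 counts, so no reads were split between names. *Olfr78* was taken from a list of 35 other vasoactive receptors, of which 15 reached the level in the tdTomato+ injury comparison with 3 higher and 8 lower, and 17 in the tdTomato- comparison with 3 higher and 6 lower. The shares of all genes were 10.8% and 34.3% in the first and 9.52% and 17% in the second. *Htr1b*, a serotonin receptor, was at 27, 34.4, 0.257 and 38.1 CPM, and *Avpr1a*, the vasopressin V1a receptor, at 1.2, 3.98, 11.7 and 84 CPM.

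**Figure D4:**
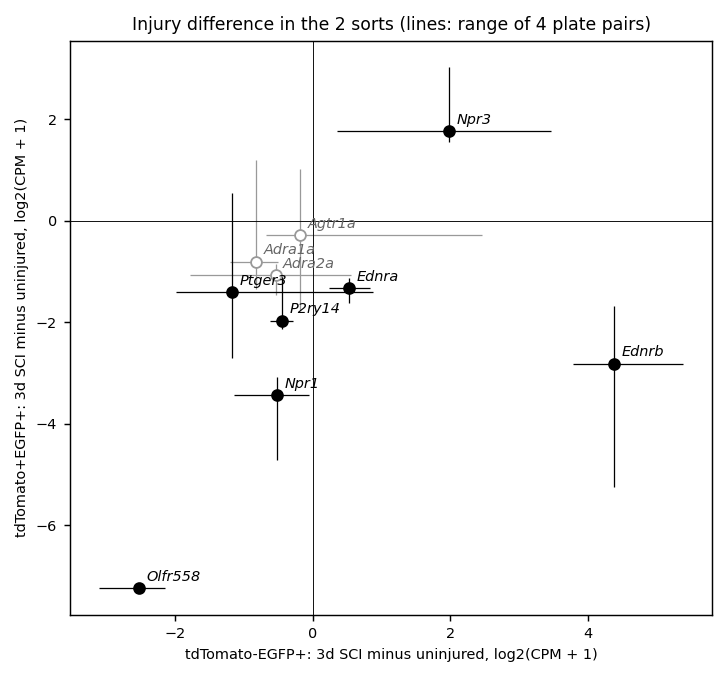
Injury difference of each receptor in tdTomato+ cells (vertical axis) against that in tdTomato- cells (horizontal axis), both as differences of log2(CPM + 1), with lines for the range over the 4 plate pairs where that range holds the summed value. Filled points reached 10 CPM. *Ednrb* is at 4.39 and -2.82, *Olfr558* at -2.53 and -7.24, the latter against a group with no count and so no bound, and *Npr3* is above 0 on both axes.

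To place the receptors among cell types, the 468 cells were clustered without the 10 genes and the pathway lists, which gave 7 clusters. Cluster 3 (72 cells) raised all 8 fibroblast markers and was called perivascular fibroblast-like, and cluster 7 (18 cells) raised 5 of 7 vSMC markers and was called vSMC-like. Clusters 4 (48 cells) and 6 (31 cells) raised 6 and 7 of 8 pericyte markers and were called pericyte-like, although no marker was among their 10 leading genes. Cluster 4 also raised 3 vSMC markers and was led by *Oacyl*, *Adamts4* and *Stc1*, with *Il6* among its leading genes. It held 47 injured tdTomato- cells and 1 injured tdTomato+ cell. Cluster 6 also raised the vSMC marker *Mylk* and the endothelial marker *Flt1*. Its endothelial marker sum was 4549 CPM, against 668.0 CPM in cluster 4, 9465 CPM in cluster 2 and 9598 CPM in cluster 5. Clusters 2 (62, 51, 1 and 5 cells of the groups in the order above) and 5 (20, 11, 1 and 12 cells) raised all 8 endothelial markers beside 7 and 3 pericyte markers. Cluster 1 (10, 10, 100 and 16 cells) raised 6 of 8 fibroblast and 6 of 6 cell cycle markers, with the vSMC markers *Acta2* and *Tagln*. The uninjured cells of cluster 1 had no count of the cell cycle markers. Its 10 uninjured tdTomato- cells had an astrocyte marker sum of 14100 CPM. Clusters 1, 2 and 5 stayed unnamed. The names were rebuilt here and may differ from those of the study.

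Each receptor had its own distribution over the clusters. *Ednrb* was at 809.0 CPM in cluster 4 and between 0.217 and 55.1 CPM in the other 6, and *Ednra* was at 555.7 CPM in cluster 4, 383.1 CPM in cluster 6 and between 33.7 and 227.5 CPM elsewhere. *P2ry14* was at 1290 CPM in cluster 6, between 696.3 and 788.5 CPM in clusters 2, 4 and 5, and between 117.7 and 171.2 CPM in clusters 1, 3 and 7. *Olfr558* was at 1123 CPM in cluster 7, 380.4 CPM in cluster 5, 107.9 CPM in cluster 6 and at most 43.6 CPM elsewhere, and *Olfr78* kept the same cluster first, at 391.6 CPM in its 14 uninjured tdTomato- cells. *Ptger3*, at 82.9 CPM, and *Adra2a*, at 29.5 CPM, were also highest in the vSMC-like cluster, each in few cells. *Npr1* was at 43.7 CPM in cluster 5 and 34.1 CPM in cluster 2, against 3.7 to 16.5 CPM in the other 5, and *Npr3* was at 13.4 CPM in cluster 1. *Agtr1a* was at 19.6 CPM in cluster 6, all from 1 cell.

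**Figure D5:**
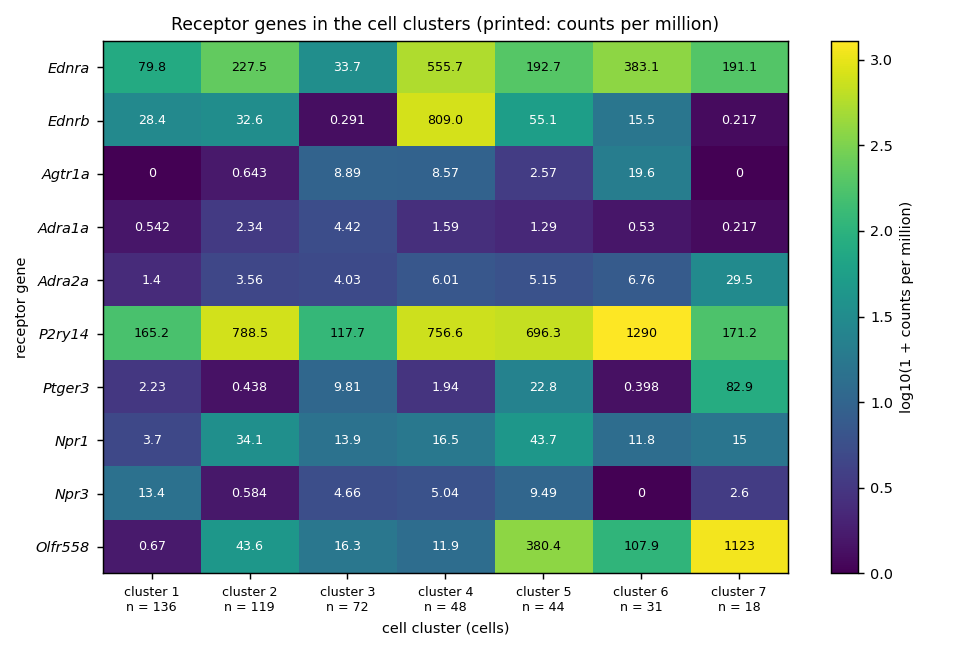
Level of each receptor gene in the 7 cell clusters, with the printed value in CPM and the colour on a log10(1 + CPM) scale; columns give the number of cells. Rows are to be read along the clusters, since counts are not scaled to gene length. *Ednrb* is highest in cluster 4, *P2ry14* in cluster 6 and *Olfr558* in cluster 7.

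Within a cluster, the groups still differed for some receptors. In cluster 1, *Ednrb* was at 2.17 CPM in 100 injured tdTomato+ cells and at 169.0 CPM in 16 injured tdTomato- cells, *Ednra* at 67.2 and 159.9 CPM, and *P2ry14* at 143.6 and 312.1 CPM. The *Ednrb* counts of these 16 cells lay in 4 cells. The marker sums of these 2 parts of cluster 1 differed too. The pericyte sum was 415.3 CPM in the tdTomato+ and 4782 CPM in the tdTomato- cells, and the fibroblast sum 18323 and 7783 CPM. In cluster 5, *Olfr558* was at 493.9 CPM in 20 uninjured tdTomato+ cells, 383.7 CPM in 11 uninjured tdTomato- cells and 142.96 CPM in 12 injured tdTomato- cells, while *Ednrb* was at 10.7, 2.13 and 209.9 CPM. *P2ry14* stayed between 605.2 and 750.6 CPM in these same cells. Their pericyte marker sum was 7166, 6337 and 15857 CPM in the same order. A cluster thus did not hold the makeup of the cells fixed, and its part in these differences was not tested.

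Leaving out clusters 2 and 5, an alternative chosen after seeing the data, kept 55, 44, 120 and 86 cells and changed several values. Cluster 6, whose endothelial marker sum was 4549 CPM, was kept. *Ednrb* was then at 2.95, 16.5, 2 and 461.3 CPM, *Ednra* at 130.7, 216.0, 69.1 and 340.1 CPM, *P2ry14* at 433.8, 579.7, 168.9 and 471.0 CPM, and *Olfr558* at 104.9, 478.2, 0 and 25.7 CPM in the order uninjured tdTomato+, uninjured tdTomato-, injured tdTomato+ and injured tdTomato-. Of the 5 receptors lower after injury in tdTomato+ cells, 2 stayed past the fold (*P2ry14* and *Olfr558*), and *Ednra*, *Ednrb* and *Npr1* did not. *Ednrb* in injured tdTomato- cells was as high without these clusters as with them.

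The genes whose level followed a receptor most closely over the 468 cells were named by Pearson's r of log-normalised counts among 14002 genes, as a description, since the cells share plates and depths. *P2ry14* followed *Art3* (r = 0.72), *Atp13a5* (0.72) and *Abcc9* (0.71), of which the last 2 are pericyte markers used here. *Ednra* followed its overlapping opposite-strand transcript *4933431K23Rik* (0.61), *Itga1* (0.61) and *Notch3* (0.60), and *Ednrb* followed *Adamts4* (0.56), *Gm28294* (0.53) and *Oacyl* (0.48). *Olfr558* followed *Nrip2* (0.74), *Myh11* (0.68) and *Lmod1* (0.63), the latter a pair of vSMC markers. *Npr1* followed *Gm16048* (0.86), with which it shares exonic bases, before *Tek* (0.37). *Npr3* followed *Hmga1* (0.42), and *Adra2a* followed *Kctd15* (0.40). *Agtr1a*, *Adra1a* and *Ptger3* had counts in under 10% of cells and were left out.

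The signalling genes downstream of these receptors were described last. Of 22 genes of Gq and calcium signalling, 18 reached the level in the tdTomato+ injury comparison, 14 of them lower and 1 higher, and in tdTomato- cells 7 of 18 were lower and 2 higher. Of all genes at the level, 34.3% were lower and 10.8% higher in the first comparison, and 17% and 9.52% in the second, so that the higher counts lay near or below the background. *Rgs5*, a regulator of G protein signalling typical of pericytes, was at 3281, 3713, 151.6 and 3077 CPM in the order of groups above. *Rgs16* went the other way, at 45.3, 29.3, 394.0 and 285.0 CPM. Of 17 genes of cyclic GMP and cyclic AMP signalling, 9 of the 15 at the level were lower in the tdTomato+ comparison and 3 of 15 in the tdTomato- comparison, with none higher in either. *Gucy1a1*, a subunit of the nitric oxide receptor guanylyl cyclase, was at 221.3, 284.4, 7.9 and 130.2 CPM. Over all genes of the pathway lists, 48 of 76 at the level were lower and 6 higher after injury in tdTomato+ cells, and 23 of 87 were lower and 12 higher in tdTomato- cells. The lists were chosen with earlier results known, and their counts are read only beside the shares of all genes just given.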

How the data were processed

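Single cells were sorted into plates and sequenced with Smart-seq3. The authors deposited whole-number counts per gene and cell, which the submitters' notes place on mm10; the aligner, annotation release, the use of strand and the collapsing of reads to molecules are not given in the sources used here. Of the deposited columns, 503 match a label and 1465 were not used. ERCC spike-ins (0.0314% of counts) were left out. The 616 gene entries with at least 500 counts on plate 211 and none on the other plates, or the reverse, took up 4.37% of the counts of plate 211 and 2.39% elsewhere.

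Cells needed at least 200 genes, under 20% mitochondrial counts, and log-normalised *Gfap* and *Ptprc* of at most 1. A cell with log-normalised *Pecam1* above 1 was removed only where that value also exceeded *Pdgfrb*. These filters removed 35 cells, and cells with *Pecam1* above 1 but not above *Pdgfrb* were kept. Counts were summed per group and per plate, scaled to CPM, and compared as log2(CPM + 1), with no test because each group is 1 sample. Clusters came from Seurat 5.3.0 (2000 variable genes, 20 principal components, resolution 0.5) in R 4.3.3, and scaling alternatives from edgeR 4.0.16 and DESeq2 1.42.0. All 10 receptors are named, and other genes only from fixed pathway lists: those with the largest absolute differences past the fold in each list, beside examples by role. Receptors and lists were chosen with earlier results of these data known. Gene positions are from GENCODE M21. Some genes of the lists are counted but not reported by name here.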

Additional observations from a re-analysis of the deposited data

Results flagged for a closer look

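For *Ednra* and *Ednrb*, the injury difference had opposite signs in the 2 sorts in all 4 plate pairs. The injury difference in tdTomato+ cells minus that in tdTomato- cells, on the log2(CPM + 1) scale, was -1.86 for *Ednra*, from -1.33 and 0.53, and -7.21 for *Ednrb*, from -2.82 and 4.39. This difference was not tested, since each group is 1 sample.

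The 35 cells removed by the filters, 34 of them for *Pecam1*, were outside all comparisons. In them *Npr1* was at 94.4 CPM, above the 31.9 CPM of the highest group kept, with a count in 20 of the 35 cells. *Olfr558* was at 244.1 CPM (95% Poisson interval 233.8 to 254.7) in the same cells, above the 221.5 CPM of uninjured tdTomato- cells, with a count in 14. The other 8 receptors were below the highest group there.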

How the results depend on the processing

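Of 166 summary values, 22 moved by over 1.5 times and the others did not; among 526 values of single receptors, 322 stayed, 203 moved and 1 reversed. No paired analysis was possible because no test was made with 1 sample per group; both sorts were on every plate, and their differences within plates are given as descriptions and enter the fold rule. Leaving out 1 plate leaves 1 plate on that side, and no value could be had for the comparisons with injured tdTomato- cells under an upper limit of 1200 detected genes, as none of those cells remained. With that limit (10, 13, 10 and 0 cells left), no receptor was lower between the uninjured sorts (0) or after injury in tdTomato+ cells (0), and the injury difference of *P2ry14* in tdTomato+ cells reversed to 6.67.

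Between the uninjured sorts, the count of receptors lower in tdTomato+ cells went from 1 to 2 with no level filter (*Agtr1a* added). It was 3 without plate 209 (*Ednrb* and *Agtr1a* added) and 0 without plate 213, where *Ednrb* made 1 higher. Without clusters 2 and 5, an alternative chosen after seeing the data, it was 6. Over all genes, 404 of 11198 were lower in the main setting and 931 of 29625 with no level filter. The lower count of all genes was 904 of 11382 without plate 209 and 1400 of 11609 without clusters 2 and 5. Without plate 213, 936 of 11152 were lower and 1025 higher. Among the injured sorts, *Npr3* made 1 receptor higher with TMM, with DESeq2 size factors and without plate 211. Without plate 211, *P2ry14* was not past the fold between the injured sorts (a log2 difference of -0.66) or in the difference of injury effects (-0.60), and *Ptger3* was past it in both. For injury in tdTomato+ cells, the higher count was 0 with a pseudocount of 10 CPM or a log2 difference of 2. The lower count was 3 at that difference (*Ednra* and *P2ry14* lost) and 2 without clusters 2 and 5. Over all 11429 genes, 1238 were higher in the main setting, 962 with that pseudocount and 535 at that difference. The lower ones were 3921 in the main setting, 1723 at that difference and 3461 of 11405 without those clusters. Without plate 209, *Ednrb* was not past the fold for injury in tdTomato+ cells, as its 9.4 CPM on plate 213 was under the level. In tdTomato- cells, *Npr3* made the higher count 2 with no level filter and without plate 215. The lower count was 2 without plate 209 (*Ptger3*), 2 without plate 213 (*Adra2a*) and 4 without clusters 2 and 5. Over all genes, 1089 of 11434 were higher in the main setting, 1575 of 30550 with no level filter and 1261 of 11453 without plate 215. The lower ones were 1941 of 11434 in the main setting and 2310 of 11485 without plate 209. They were 2228 of 11325 without plate 213 and 1889 of 11526 without those clusters. For the difference of injury effects, the lower count was 3 at a log2 difference of 2, and *Npr3* made the higher count 1 without plate 211 and without plate 213. The cause of these moves was not tested. Depth limits the injured tdTomato+ cells of plate 215, where 3 counts are 1.79 CPM.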
